A study of Rattus norvegicus with 11 samples.

Results

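The miR-30 family was followed in pancreatic islets of Sprague-Dawley rats, with 6 libraries from 3-month-old males (12 weeks, adult) and 5 from 10-day-old pups (P10, 1.5 weeks). Its members were all sense-strand features named miR-30a to miR-30e, both arms and all gene copies, which gave 10 of the 950 rows of the deposited count table. They are the 5p and 3p arms of miR-30a, miR-30c-1, miR-30c2, miR-30d and miR-30e, so miR-30c has 4 rows, 2 for each of its gene copies. miR-30b, the remaining name in the family, was not analysed here. Islets are clusters of hormone-secreting cells scattered through the pancreas, and the animals are labelled as controls at both ages. Whether a library pools several animals is not stated. No sex is used here for the pups, so that effects of age and of sex cannot be told apart.

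A microRNA (miRNA) is cut as a short duplex from a hairpin transcript; 1 strand, the guide, is kept by an Argonaute protein and pairs with messenger RNAs through its seed, bases 2 to 8 from its 5′ end, while the other strand is mostly degraded. In the miR-30 family the 5p strand is the usual guide, and its seed is shared by every member, so members are thought to act on overlapping sets of transcripts. The family is abundant in epithelial cells. In human islet-derived cells its members are known to repress mesenchymal transcripts, and in mouse beta cell lines miR-30d is known to raise insulin gene expression.

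The mature sequences, from RefSeq (GRCr8), show how closely the members resemble each other and which rows of the table can be told apart. A sequence was matched for 7 of the 10 rows, and none for miR-30d-5p, miR-30d-3p or miR-30e-3p. Capitals mark the seed.

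miR-30a-5p: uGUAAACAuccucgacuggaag

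miR-30e-5p: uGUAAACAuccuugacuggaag

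miR-30c-5p, from both gene copies: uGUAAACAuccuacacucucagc

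miR-384-5p, an X-linked miRNA outside the family: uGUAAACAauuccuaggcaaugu

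miR-30a-3p: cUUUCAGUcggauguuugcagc

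miR-30c-1-3p: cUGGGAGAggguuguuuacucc

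miR-30c2-3p: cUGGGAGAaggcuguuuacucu

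Of 724 mature entries in the RefSeq table, 5 carry the seed GUAAACA, and all 5 are named miR-30 or miR-384. They are those of miR-30a, miR-30e, both miR-30c copies and miR-384, so the seed of miR-30d-5p was not checked here. Counted from the 5′ end, miR-30e-5p differs from miR-30a-5p by a single substitution, C13U. miR-30c-5p is identical over all 23 bases whether it comes from miR-30c-1 or miR-30c2, so reads of the miR-30c-1-5p and miR-30c2-5p rows cannot be assigned to a gene copy by the mature sequence. The 3p arms of the miR-30c copies differ at 3 positions (G9A, U12C and C22U, miR-30c-1 first) and can be told apart. The 3p arms also have other seeds, UUUCAGU for miR-30a-3p and UGGGAGA for the miR-30c 3p arms. The hairpins of the miR-30c copies show this arrangement, with the mature arms in capitals.

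Mir30c1 hairpin: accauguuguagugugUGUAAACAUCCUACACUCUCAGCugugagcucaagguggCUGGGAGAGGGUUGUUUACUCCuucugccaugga

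Mir30c2 hairpin: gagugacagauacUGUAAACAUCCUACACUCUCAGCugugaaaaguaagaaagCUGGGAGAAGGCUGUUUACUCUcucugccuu

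In Rnor_5.0, the build of the files, miR-30d lies on chromosome 7 (5p arm 109228690 to 109228711, minus strand). miR-30a lies on chromosome 9 (28377828 to 28377849, plus strand), with miR-30c2 on the same strand 19686 bases away (28397577 to 28397599). miR-30e lies on chromosome 5 (143497806 to 143497827, minus strand), with miR-30c-1 on the same strand 2934 bases away (143494807 to 143494829). In the RefSeq gene table (GRCr8), Mir30e and Mir30c1 lie within the span of Nfyc, which encodes a subunit of the CCAAT-binding factor NF-Y. Mir30d lies within the span of a long noncoding RNA gene, LOC102551574, which also spans Mir30b. Mir30c2 lies within the spans of the long noncoding RNA gene LOC134480562 and the pseudogene Rbx1-ps1, and no gene spans Mir30a. The table does not tell exons from introns.

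Library totals ranged from 1432929 to 4483017 counts. The islet label fits the endocrine marker miR-375-3p, which was at 287885 ± 26982 CPM in adults (± SD, 6 libraries) and 143152 ± 21148 CPM at P10 (5 libraries), CPM being counts scaled to a common library size and adjusted by TMM (trimmed mean of M-values). Among markers of other cell types, the acinar list summed to 25.6 to 119 CPM in adults and 20.5 to 32.7 CPM at P10. The mesenchymal list summed to 17177 to 58305 CPM in adults and 33256 to 61145 CPM at P10, with adult replicate 1 and P10 replicate 3 the highest of their age. P-values measure the spread between libraries that the labels call biological replicates. In these bulk samples fewer cells of a type and less of a miRNA per cell cannot be told apart.

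Adult islets held more of the abundant miR-30 guide strands. miR-30d-5p and miR-30a-5p rose, miR-30e-5p rose with a test close to the threshold, and the star strands of the same 3 hairpins did not pass. P-values of edgeR's quasi-likelihood test were adjusted over 457 features after Benjamini and Hochberg. These features are called miRNAs here, though some carry only an Ensembl transcript identifier and antisense rows were not excluded before the abundance filter. By this test 4 of the 10 rows were higher in adults (3 of 5 5p arms and 1 of 5 3p arms), where 21.2% of all tested miRNAs were. None of the 10 was lower by edgeR, where 29.5% of all tested miRNAs were. Of the 10, 0 were lower at an unadjusted p under 0.05, with DESeq2 or with limma-voom. The median log2 fold change was 0.41 over the 5p arms and -0.06 over the 3p arms, against -0.11 over all tested miRNAs. The 5p arms count the shared miR-30c-5p sequence as separate rows, and their median is the value of miR-30c2-5p, which did not pass. The CPM ranges of the ages did not overlap for 2 of the 10, miR-30a-5p and miR-30d-5p, against 30.0% of all tested miRNAs. All 10 rows passed the abundance filter. Over the whole table, 97 miRNAs were higher and 135 lower with TMM, while library totals alone gave 54 higher and 187 lower and upper-quartile scaling gave 127 higher and 103 lower. Of the miR-30 rows, 6 were higher and 0 lower with upper-quartile scaling. With DESeq2 5 were higher and 0 lower, where 127 of all tested miRNAs were higher and 121 lower.

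**Figure D1:**
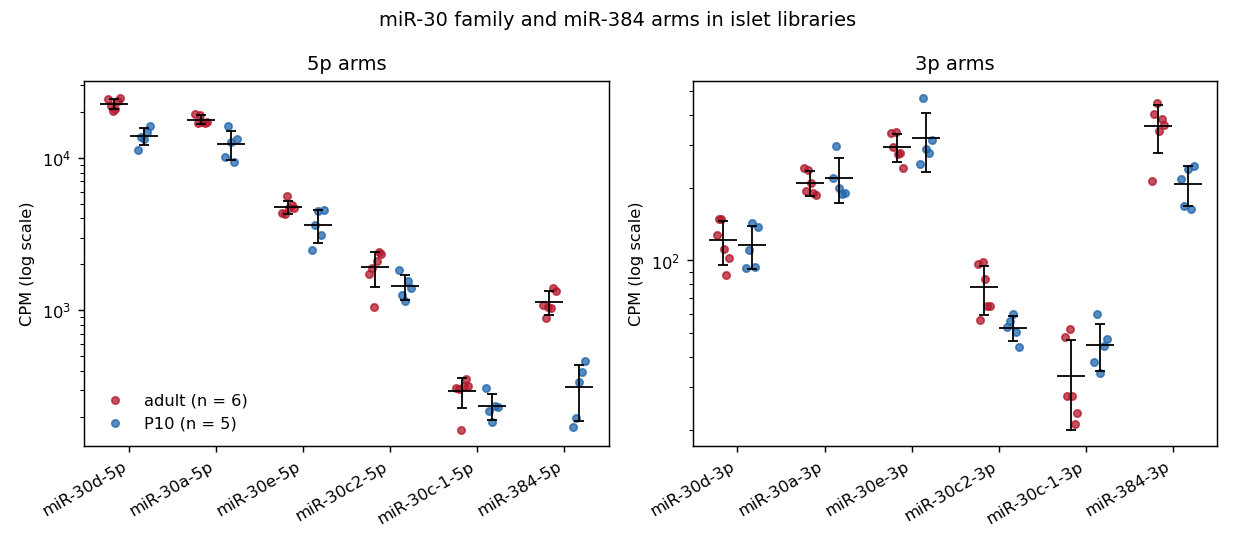
CPM on a log scale for the 5p arms (left) and 3p arms (right) of the miR-30 family and of miR-384; each point is 1 library (adult, n = 6, P10, n = 5), and the bars give the mean and SD. miR-30d-5p and miR-30a-5p are higher in every adult library than in any P10 library, while the 3p arms of miR-30d, miR-30a and miR-30e overlap between ages.

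miR-30d-5p was the most abundant member and the one with the largest rise among the 10 rows. In adults it ran from 20201 CPM to 24748 CPM with a median of 22600 CPM, and at P10 it was at 11284, 13740, 13353, 14785 and 16223 CPM (replicates 1, 3, 4, 5 and 6). Every adult library was above every P10 library. The change was 1.62-fold (log2 change 0.70, SE 0.11, adjusted p = 0.000109 by edgeR). It made up 2.08% ± 0.195 of the miRNA counts in adults (± SD, 6 libraries) and 1.53% ± 0.204 at P10 (5 libraries), and ranked 12th of the 457 tested by mean CPM.

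miR-30a-5p, known in human cells for repressing the autophagy gene Beclin 1, ranked 13th. In adults it ran from 16805 CPM to 19459 CPM with a median of 17086 CPM, and at P10 it was at 10052, 16041, 12701, 9367 and 13217 CPM. The groups did not overlap, and P10 replicate 3 came closest to the adult range. The change was 1.45-fold (log2 change 0.53, SE 0.13, adjusted p = 0.00409 by edgeR). miR-30d-5p and miR-30a-5p passed as higher under each of the 23 alternatives run, including library totals alone.

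miR-30e-5p, which differs from miR-30a-5p by the substitution shown above, was less abundant than miR-30a-5p by 3.75 times in adults and 3.37 times at P10. In adults it ran from 4276 CPM to 5579.5 CPM with a median of 4675.6 CPM, and at P10 it was at 2468, 3604.5, 4467, 3105 and 4545 CPM. P10 replicates 4 and 6 lay within the adult range. The log2 fold change was 0.38 ± 0.15 (SE; edgeR adjusted p = 0.0480). The call was lost without any 1 of 7 libraries, adult replicates 3, 4, 5 and 6 and P10 replicates 1, 3 and 5, with log2 changes from 0.27 to 0.39 (edgeR adjusted p from 0.0576 to 0.0884), and miR-30e-5p passed in 13 of 23 alternatives. With library totals alone the log2 change was 0.13 (edgeR adjusted p = 0.478), and with a mean CPM of at least 10 as the filter it was 0.35 (0.0652).

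The 2 miR-30c 5p rows did not pass by edgeR with TMM. miR-30c2-5p averaged 1915 ± 497 CPM in adults (± SD, 6 libraries) and 1440 ± 264 CPM at P10 (5 libraries; log2 change 0.41, SE 0.19, adjusted p = 0.0907 by edgeR). miR-30c-1-5p averaged 296 ± 66.8 CPM in adults and 237 ± 45.2 CPM at P10 (log2 change 0.32, SE 0.19, adjusted p = 0.172 by edgeR). Summed into a single miR-30c-5p, an alternative chosen after seeing the data, they were at 2211 ± 560 CPM in adults and 1676 ± 308 CPM at P10 (log2 change 0.40, SE 0.19, adjusted p = 0.0960 by edgeR). Adult replicate 3 was far below the rest of its group in both rows, with 1046 CPM of miR-30c2-5p where the other adults ran from 1727 to 2402 CPM. Without this library both rows passed as higher, with log2 changes of 0.55 for miR-30c2-5p (edgeR adjusted p = 0.00780) and 0.46 for miR-30c-1-5p (0.0225). miR-30c2-5p also passed as higher with DESeq2 (adjusted p = 0.0382), and by edgeR with DESeq2's size factors (0.0465) and upper-quartile scaling (0.0203). miR-30c-1-5p also passed by edgeR with upper-quartile scaling (0.0454).

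**Figure D2:**
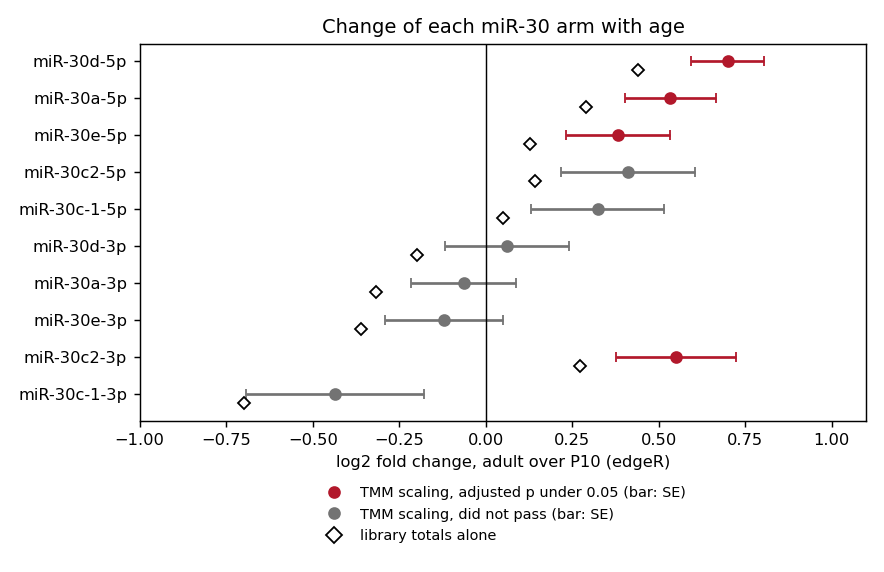
Log2 fold change of each miR-30 arm, adult over P10, from edgeR with TMM scaling (filled points, bars are SE, red where adjusted p is under 0.05) and with library totals alone (open diamonds). The 5p arms lie between 0.32 and 0.70 with TMM, and library totals move every arm to the left, miR-30d-3p to below 0.

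The star strands behaved less uniformly. miR-30c2-3p was the 3p arm that passed, at 77.5 ± 17.7 CPM in adults (± SD, 6 libraries) and 52.8 ± 6.18 CPM at P10 (5 libraries; log2 change 0.55, SE 0.17, adjusted p = 0.0174 by edgeR). Its adult values ran from 56.9 to 98.3 CPM, and P10 replicate 4 (60.2 CPM) lay within that range. With library totals alone its log2 change was 0.27 (adjusted p = 0.186). miR-30c-1-3p, from the other miR-30c copy, had 33.4 ± 13.4 CPM in adults and 44.7 ± 9.87 CPM at P10 (log2 change -0.44, SE 0.26, adjusted p = 0.169 by edgeR). The 3p arms of the copies had log2 changes of opposite sign, while their 5p rows, which share a sequence, had changes of the same sign.

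miR-30e-3p was at 294 ± 38.2 CPM in adults and 320 ± 87.4 CPM at P10 (log2 change -0.12, SE 0.17, adjusted p = 0.568 by edgeR). miR-30a-3p was at 209 ± 24.0 CPM in adults and 219 ± 46.2 CPM at P10 (log2 change -0.06, SE 0.15, adjusted p = 0.729 by edgeR). In both arms P10 replicate 3 was the highest library of its age, with 298 CPM of miR-30a-3p and 471 CPM of miR-30e-3p, and without it the log2 changes were 0.07 and 0.05. Both changes also turned positive with upper-quartile scaling. miR-30d-3p was at 121 ± 24.9 CPM in adults and 116 ± 23.5 CPM at P10 (log2 change 0.06, SE 0.18, adjusted p = 0.770 by edgeR), and its change was -0.20 with library totals alone. With library totals alone, which shifted the median of all tested miRNAs by -0.27 on the log2 scale, 2 rows were higher (miR-30a-5p and miR-30d-5p) and 2 lower (miR-30c-1-3p and miR-30e-3p, log2 changes -0.70 and -0.36).

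The 5p strand gained on the 3p strand in the miR-30a and miR-30d hairpins. The scaling of a library cancels in this ratio, which was tested with limma over 127 hairpins with both arms past the filter. Some of these hairpins carry only an Ensembl transcript identifier. The 5p to 3p ratio was higher in adults for 2 of the 5 miR-30 hairpins, against 11.8% of all hairpins. Changes across the table went both ways, and other hairpins had a lower ratio in adults. Among these were miR-24 and miR-152 (log2 differences -1.62 and -1.51, limma adjusted p = 4.95e-05 and 0.000254). The other 3 miR-30 hairpins did not pass. The ranges of the log2 ratio did not overlap for 1 of the 5, miR-30a, against 15.0% of all hairpins.

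In the miR-30a hairpin, 84.9 reads of the 5p arm were counted per 3p read in adults and 55.7 at P10 (geometric means). The log2 ratio ran from 6.33 to 6.52 in adults with a mean of 6.41, and at P10 it was 5.52, 5.74, 5.99, 5.63 and 6.12. Every adult value was above every P10 value, and the adults were tightly grouped. The difference was 0.61 ± 0.17 on the log2 scale (SE; limma adjusted p = 0.0164), and it passed in each of the 16 alternatives, with adjusted p from 0.00896 to 0.0482.

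In the miR-30d hairpin, the most unequal of the 5, 188 reads of the 5p arm were counted per 3p read in adults and 120.3 at P10. The log2 ratio averaged 7.55 ± 0.38 in adults (± SD, 6 libraries) and 6.91 ± 0.26 at P10 (5 libraries), and P10 replicate 5 (7.28) lay above adult replicates 2 and 3. The difference of 0.64 ± 0.21 (SE; limma adjusted p = 0.0421) was of the size seen in miR-30a. The call was lost without any 1 of 8 libraries (adult replicates 1, 4, 5 and 6 and P10 replicates 1, 3, 4 and 6; limma adjusted p from 0.0590 to 0.110), while the difference stayed between 0.54 and 0.65 on the log2 scale in these 8.

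The other 3 hairpins did not pass. In miR-30e, 16.1 reads of the 5p arm were counted per 3p read in adults and 11.4 at P10, a log2 difference of 0.51 ± 0.21 (SE; limma adjusted p = 0.0829). In miR-30c-1 the log2 difference was 0.78 ± 0.37 (SE; limma adjusted p = 0.124), and without adult replicate 3 it was 1.08 (adjusted p = 0.0102). In miR-30c2 it was -0.14 ± 0.31 (SE; limma adjusted p = 0.793). The miR-30c ratios carry the uncertainty of the shared 5p sequence.

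**Figure D3:**
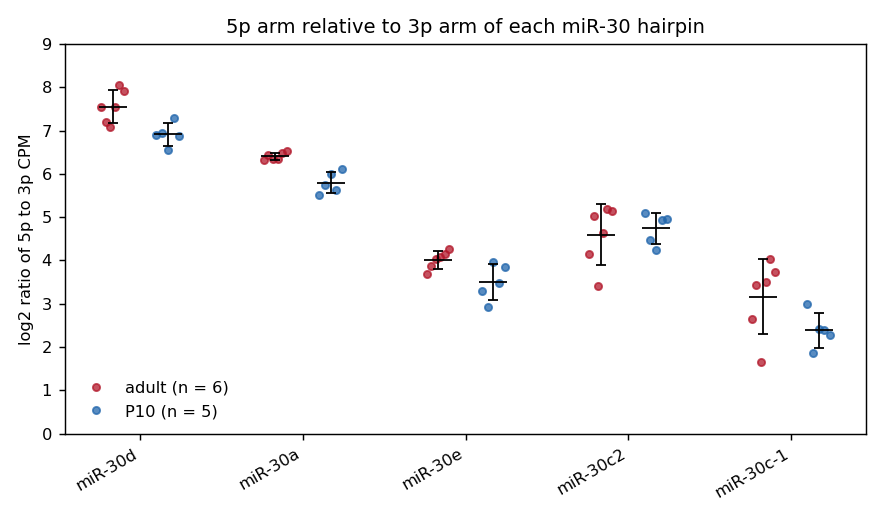
Log2 ratio of 5p to 3p CPM for each miR-30 hairpin; each point is 1 library (adult, n = 6, P10, n = 5), and the bars give the mean and SD. The 6 adult values of miR-30a lie between 6.33 and 6.52, above all 5 P10 values, while the other hairpins overlap between ages.

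The order of abundance within the family was the same for the leading 4 members at both ages. Counts of mature arms of nearly equal length need no length scaling, but ligation and PCR favour some sequences, which makes levels of different miRNAs less comparable than levels of 1 miRNA between libraries. In adults miR-30d-5p was above miR-30a-5p in 6 of 6 libraries by 1.27 times on average, with no overlap of ranges, and then came miR-30e-5p, miR-30c2-5p and miR-30c-1-5p. At P10 miR-30d-5p was above miR-30a-5p in 4 of 5 libraries, and their ranges overlapped. Among the neighbours lower in the order, ranges overlapped in adults for miR-30c-1-5p with miR-30e-3p and for miR-30d-3p with miR-30c2-3p. At P10 they overlapped for miR-30e-3p with miR-30c-1-5p, miR-30c-1-5p with miR-30a-3p and miR-30c2-3p with miR-30c-1-3p.

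The family's part of the library was larger in adults, while the shares of its members within it overlapped between ages. The 5p arms made up 4.35% ± 0.235 of the miRNA counts in adults (SD, n = 6, 4.12% to 4.69%). At P10 they made up 3.46% ± 0.267 (SD, n = 5; 3.19%, 3.25%, 3.62%, 3.39% and 3.83%). The adult libraries were all above the P10 libraries, a sum over the members given with no test. Summed CPM of the 5p arms was 47244 ± 2090 in adults and 31467 ± 4042 at P10, and that of the 3p arms 735 ± 106 in adults and 752 ± 141 at P10. The 3p arms were 1.53% ± 0.228 of all miR-30 counts in adults and 2.33% ± 0.292 at P10, with no overlap between ages.

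Of the 5p counts, miR-30d-5p held 47.6% ± 2.26 in adults (± SD, 6 libraries) and 44.3% ± 4.34 at P10 (5 libraries), and miR-30a-5p held 37.6% ± 2.46 in adults and 38.8% ± 4.97 at P10. miR-30e-5p held 10.1% ± 1.17 in adults and 11.5% ± 1.86 at P10. For all 5 members the ranges of these shares overlapped between ages. The miR-30c-1 row held 12.1% to 15.1% of the summed miR-30c 5p counts in adults and 13.2% to 14.7% at P10, a nearly constant part. How the authors assigned reads that fit both gene copies is not given in the sources used here.

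**Figure D4:**
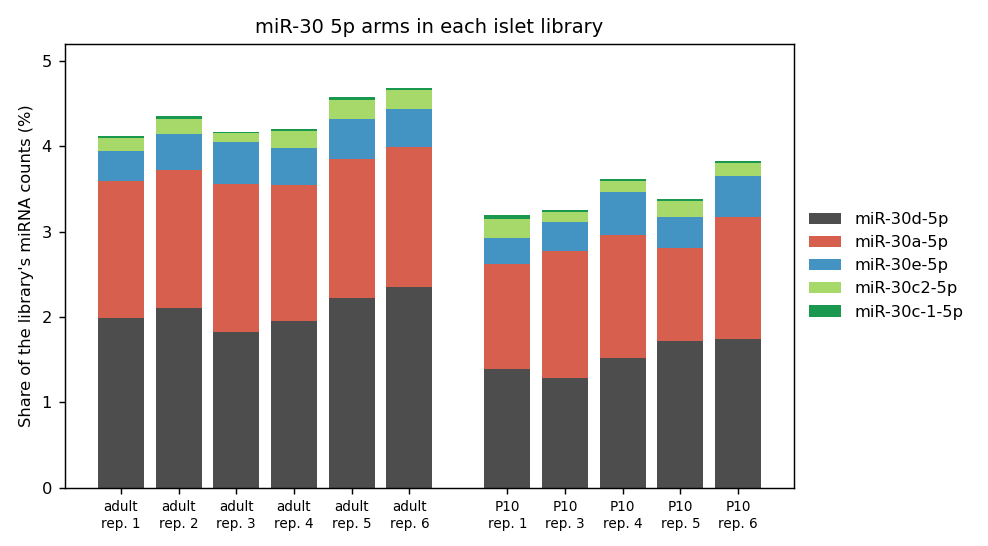
Share of each library's miRNA counts, in percent, held by the miR-30 5p arms, stacked by member, for 6 adult and 5 P10 libraries. The 5p arms make up 4.12% to 4.69% of adult libraries and 3.19% to 3.83% of P10 libraries, and miR-30d-5p and miR-30a-5p hold most of it in each.

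Rows of neighbouring miR-30 genes were compared by the log2 ratio of their 5p arms within each library. Both pairs include a miR-30c 5p row, whose reads cannot be assigned to a gene copy by the mature sequence. The ratios therefore compare rows and cannot tell how the neighbouring genes themselves changed. miR-30a-5p over miR-30c2-5p averaged 3.26 ± 0.52 in adults (± SD, 6 libraries) and 3.08 ± 0.53 at P10 (5 libraries), a difference of 0.18 (p = 0.587 by a two-sided exact permutation test, 0.781 after adjustment for 2 pairs). miR-30e-5p over miR-30c-1-5p averaged 4.03 ± 0.51 in adults and 3.92 ± 0.61 at P10, a difference of 0.11 (exact permutation p = 0.781, adjusted p = 0.781). The ranges overlapped in both pairs, and without adult replicate 3 the first difference was -0.0093. An unequal change of the paired rows with age was not detectable here. Across the 11 libraries, after subtraction of each age's mean, the Pearson correlation of log2 CPM was -0.53 for miR-30a-5p with miR-30c2-5p. It was -0.64 for miR-30e-5p with miR-30c-1-5p, so libraries of 1 age with more of one row tended to hold less of the other. It was 0.96 for the identical miR-30c-1-5p with miR-30c2-5p, on different chromosomes, and 0.58 for miR-30a-5p with miR-30e-5p. These are descriptions over libraries that share depth and preparation within each pair of values.

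miR-384-5p, which carries the miR-30 seed outside the family, was a small part of its sum with the analysed miR-30 5p rows and rose 3.61-fold. In adults it ran from 897 to 1411 CPM with a median of 1067 CPM, and at P10 it was at 173, 198, 342, 397 and 464 CPM. It averaged 1138 ± 199 CPM in adults (± SD, 6 libraries) and 315 ± 126 CPM at P10 (5 libraries; log2 change 1.85, SE 0.25, adjusted p = 4.70e-05 by edgeR). It was 2.35% ± 0.344 of the summed counts of miR-384-5p and the analysed miR-30 5p rows in adults and 0.984% ± 0.357 at P10, and the groups did not overlap. This sum lacks miR-30b-5p and includes miR-30d-5p, whose seed was not checked here, so these are not shares of all reads with the seed.

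Epithelial and endocrine miRNAs were counted beside the family. By edgeR 21.2% of all 457 tested miRNAs were higher in adults and 29.5% lower, the shares to set beside the counts of every list below. Of 6 tested arms on the epithelial list, 3 were higher in adults and 0 lower by edgeR, where 5 were higher and 1 lower at an unadjusted p under 0.05 and 5 higher and 0 lower by DESeq2. The median log2 change was 0.53, and summed CPM ran from 49081 to 59787 in adults and from 25061 to 38780 at P10, with no overlap. miR-141-3p and miR-429-3p, of the miR-200 family that maintains epithelial identity, rose. miR-141-3p was at 48711 ± 4128 CPM in adults and 28855 ± 5870 CPM at P10 (edgeR adjusted p = 0.000325), and miR-429-3p at 2393 ± 290 CPM in adults and 1538 ± 266 CPM at P10 (0.00115). Arms of the gene copies miR-7a-1 and miR-7a-2 entered the endocrine list separately. Of 12 tested endocrine arms 6 were higher and 2 lower by edgeR, with a median log2 change of 0.45. miR-375-3p was among those higher (edgeR adjusted p = 8.67e-06), and miR-183-5p, at 6311 ± 511 CPM in adults and 8220 ± 1644 CPM at P10, among those lower (0.0191). miR-200a, miR-200c and miR-203 of the epithelial list and miR-182 of the endocrine list were not analysed here.

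Some markers of mesenchymal and acinar cells also differed between the ages. Of 6 tested mesenchymal arms 4 were lower in adults and 0 higher by edgeR, by DESeq2, and at an unadjusted p under 0.05, with a median log2 change of -1.11. miR-199a-3p was among those lower, at 255 ± 154 CPM in adults and 1237 ± 59.6 CPM at P10 (edgeR adjusted p = 3.59e-05), and miR-143-3p did not pass, at 29208 ± 15073 CPM in adults and 41025 ± 11399 CPM at P10 (0.174). Of 3 tested acinar arms 2 were higher by edgeR, miR-217-5p at 38.5 ± 20.6 CPM in adults and 9.69 ± 2.03 CPM at P10 (0.000805) and miR-216a-5p at 26.0 ± 17.3 CPM in adults and 9.82 ± 2.63 CPM at P10 (0.0259). Their summed level was low in every library beside that of the endocrine list, which ran from 263060 to 336170 CPM in adults and from 127250 to 176060 CPM at P10.

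Of 4 tested leukocyte arms 1 was lower and 0 higher in adults by edgeR, 0 were higher at an unadjusted p under 0.05, and 1 was higher by DESeq2; the summed level ran from 248 to 829.1 CPM in adults and from 676 to 1422 CPM at P10. miR-150-5p, a lymphocyte miRNA, was the lower one, at 132 ± 51.0 CPM in adults and 368 ± 163 CPM at P10 (edgeR adjusted p = 0.00156), and miR-142-5p was at 337 ± 210.0 CPM in adults and 549 ± 196 CPM at P10 (0.162). Of 2 erythroid arms, miR-451-5p and miR-144-5p, 0 passed by edgeR, by DESeq2 or at an unadjusted p under 0.05, and their sum ran from 13.8 to 61.5 CPM in adults and from 24.2 to 70.0 CPM at P10. Of 5 neural arms, led by miR-128-3p and miR-138-1-5p, 0 passed by edgeR or at an unadjusted p under 0.05 and 1 was higher by DESeq2, with sums from 131 to 238 CPM in adults and from 154 to 192 CPM at P10. miR-199b, miR-214, miR-486, miR-9, miR-9a, miR-338 and the endothelial miR-126 were not analysed here. The part of these cell types in the miR-30 results was not tested. With adult replicate 1 and P10 replicate 3, the highest in mesenchymal miRNAs, left out together, 3 of the 10 miR-30 rows passed as higher, and miR-30e-5p did not (log2 change 0.41, edgeR adjusted p = 0.0670). In that fit 87 of all 468 tested features were higher and 129 lower.

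The miRNAs whose levels followed the mean of the miR-30 5p rows most closely, by Pearson correlation of log2 CPM over 11 libraries among 191 miRNAs of at least 50 CPM, were miR-664-2-3p (0.93), miR-152-3p (0.92), miR-7a-1-5p (0.92), miR-7a-2-5p (0.91) and miR-22-3p (0.90). This mean gives each row equal weight whatever its abundance, and the shared miR-30c-5p sequence enters it as separate rows. Of these, miR-7a-1-5p and miR-7a-2-5p are rows of gene copies of miR-7a and may not be separate matches. All 5 rows differ between ages by the edgeR test, and the correlations contain that difference. After subtraction of each age's mean the values were 0.58, 0.58, 0.67, 0.66 and 0.29 in the same order. On that scale miR-664-2-3p correlated with miR-30c2-5p alone at 0.84. The miR-30c rows ran against other members there, at -0.53 for miR-30c2-5p with miR-30a-5p and -0.64 for miR-30c-1-5p with miR-30e-5p. The part of the miR-30c rows in this ranking was not tested.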

How the data were processed

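Small RNA libraries were made from islet total RNA with an Illumina TruSeq kit, per the labels' protocols. Raw counts of reads for each mature arm of each locus were deposited, with positions on Rnor_5.0 per the file headers; the submitters' processing notes name edgeR and DESeq with no version. For the aligner, the counting rules and the annotation, nothing is given in the sources used here. Counts are reads, not molecules.

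The series table equalled the 11 library tables. Each name entered once, with the highest count among its rows in each library (898 features); no member had repeated rows. In R 4.3.3, edgeR 4.0.16 filtered features (filterByExpr), applied TMM and tested age with robust quasi-likelihood fits, with Benjamini-Hochberg adjustment at 0.05. SEs come from the quasi-likelihood statistic. Arm ratios were tested with limma 3.58.1 on log2 CPM (prior count 2), and gene pairs by exact permutation. Alternatives were DESeq2 1.42.0, limma-voom, other scalings and filters, a replicate block and leaving out libraries. The steps were tested on simulated data. Same-age libraries were not duplicates (lowest chi-square per degree of freedom 12.95).

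Members and lists were chosen with earlier results of these data known. All members, miR-384-5p, the most abundant members of each list and the 5 most alike miRNAs (at least 50 CPM) are named.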

Additional observations from a re-analysis of the deposited data

Results flagged for a closer look

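Of 64 combinations of a measure and an age, 6 held a library whose distance from its neighbour was unusually large for the group. Chance alone gives about 1 in 20, but many of these measures share rows and are not independent checks. Adult replicate 3 stood apart in 4 of the 6, and all of these but the miR-30a-5p share used its low miR-30c-1-5p count. Its miR-30c-1-5p was at 165 CPM, where the other adults ran from 304 to 357 CPM, and this row made up 0.357% of its miR-30 5p counts, against 0.618% to 0.743% in the other adults. Its log2 ratio of miR-30e-5p over miR-30c-1-5p was 5.07, against 3.78 to 3.86, and miR-30a-5p made up 1.73% of its counts, against 1.59% to 1.63%. P10 replicate 3 stood apart in the other 2, with miR-30a-3p at 298 CPM, against 188 to 219 CPM, and miR-30e-3p at 471 CPM, against 250.07 to 314 CPM in the other pups.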

How the results depend on the processing

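miR-30d-5p and miR-30a-5p were higher in adults in all 23 alternatives, with log2 changes from 0.44 to 0.86 and from 0.29 to 0.69, and miR-30c2-3p passed in 22. The number of miR-30 rows that were higher was 4. It was 2 with library totals alone, where 2 were lower instead of 0, 3 with a mean CPM of at least 10 and without adult replicate 1 and P10 replicate 3 together, 5 with DESeq2 and with DESeq2's size factors, 6 with upper-quartile scaling, and 3 to 5 when a single library was left out. Over all features 97 of 457 were higher with TMM, 54 of 457 with library totals alone (187 lower) and 127 of 457 with upper-quartile scaling. With DESeq2 127 of 457 were higher, and with DESeq2's size factors 121 of 457. With the CPM filter 83 of 381 were higher, and without adult replicate 1 and P10 replicate 3 together 87 of 468. When a single library was left out, 86 to 97 were higher. The 2 hairpins with a higher 5p to 3p ratio became 1 to 3 when a library was left out, and 1 without adult replicate 1 and P10 replicate 3 together. Some of the arms and ratios that had not passed changed sign, and the cause was not tested. Others kept their sign in every alternative: miR-30c-1-3p, miR-30c-1-5p, miR-30c2-5p and the arm ratios of miR-30e and miR-30c-1. miR-30a-3p had a log2 change of 0.020 with DESeq2's size factors, 0.023 with DESeq2, 0.10 with upper-quartile scaling and 0.031 without those 2 libraries; miR-30e-3p had 0.040 with upper-quartile scaling and 0.020 without those 2; miR-30d-3p had -0.20 with library totals alone and -0.0094 with the replicate block. Over left-out libraries the log2 change ran from -0.12 to 0.067 for miR-30a-3p, from -0.0097 to 0.16 for miR-30d-3p and from -0.20 to 0.053 for miR-30e-3p. The difference ran from -0.27 to 0.094 for the miR-30c2 arm ratio, from -0.0093 to 0.32 for miR-30a-5p over miR-30c2-5p and from -0.12 to 0.28 for miR-30e-5p over miR-30c-1-5p. With the replicate number as a block (5 shared numbers, adult replicate 2 left out), 4 miR-30 rows were higher and 0 lower, as without it, and 2 arm ratios were higher. Of all 452 features tested with the block, 93 were higher and 112 lower. Deviations of same-numbered libraries correlated between -0.21 and 0.20, and 1 of 5 correlated best with its own number. Whether same-numbered libraries share a litter, day or batch is not given by the labels, and 5 pairs cannot settle it. The planned comparison of miR-30b with miR-30d was not run, since miR-30b was not analysed here.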

Other observations

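The miRNAs that varied most like miR-30c2-5p within an age, chosen after their values were seen, were miR-30c-1-5p, miR-3547-3p and miR-129-1-3p, with Pearson correlations of 0.96, 0.94 and 0.91 over 11 libraries after subtraction of each age's mean, among 199 miRNAs. In adult replicate 3 miR-3547-3p was at 23.4 CPM, against 51.6 to 93.4 CPM in the other adults, and miR-129-1-3p at 79.7 CPM, against 164 to 308 CPM. Among the pups both were lowest in replicate 4, at 26.9 and 48.8 CPM, which also held the least miR-30c2-5p, 1149 CPM. 1 read was counted antisense to miR-30e-3p over all 11 libraries.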
